A study of Homo sapiens with 16 samples.

Results

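The comparison described here is between U2OS cells with both PIP4K2A and PIP4K2B knocked down and U2OS cells with the empty vector, both collected after UV-C. U2OS is an established human sarcoma line from bone. It rests on 4 of the 16 libraries of the series, 2 of double-knockdown cells (genotype shPIP4K2A/2B, UV treated) and 2 of vector cells (genotype plko.puro, UV treated), chosen by their titles. All 4 came from stably transduced lines kept in puromycin, and all received 30 J/m2 of UV-C and were collected 6 h later. The other groups used for reference were the PIP4K2A knockdown and the PIP4K2B knockdown after the same dose, and double-knockdown and vector cells with no UV, again with 2 libraries each. RNA-seq was run on total RNA after removal of rRNA, and the values are estimated counts per gene or CPM, a gene's count scaled to a common library total. The labels do not say how many independent lines or hairpins stand behind a knockdown, nor whether 2 libraries of a group came from separate cultures, so the tests measure only the spread between these libraries.

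PIP4K2A, PIP4K2B and PIP4K2C encode the phosphatidylinositol 5-phosphate 4-kinases. They phosphorylate the minor lipid phosphatidylinositol 5-phosphate to phosphatidylinositol 4,5-bisphosphate, and so set the level of both lipids at membranes and in the nucleus. Phosphatidylinositol 5-phosphate is known to rise in cells under stress, UV included, and PIP4K2B is the form most often found in the nucleus. The kinases have also been tied to insulin and AKT signalling, to autophagy and to the growth of p53-deficient tumours.

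The 4 libraries held 32.3 and 32.1 M counts (double knockdown) and 39.9 and 31.7 M counts (vector), M being mega. Mitochondrial genes took 2.64% and 2.61% of the counts in the double knockdown and 2.33% and 2.65% in the vector cells, and ribosomal protein genes took 3.87% in both double-knockdown libraries against 4.30% and 4.43%. The 2 double-knockdown libraries were much closer to each other than any other pair: a chi-square statistic over their counts was 1.81 per degree of freedom (1 is pure sampling noise), against 17.3 for the 2 vector libraries and 5.72 to 403 for all other pairs. They were not identical, and both were kept as 2 libraries in the main fit. Exceeding sampling noise cannot tell separate cultures from repeats of 1 culture. For that reason many counts below are also given with the pair counted as 1 sample. At the other end stood 1 untreated vector library, with 1.28 M counts and 14.6% mitochondrial counts, which was left out of the fit. With that library in, the biological coefficient of variation went from 11.3% to 41.9%, and the calls after UV went from 1921 genes higher and 1550 lower to 47 and 17.

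The knockdown itself came first. PIP4K2A (chr10:22534849-22714555, minus strand, GRCh38) was at 9.11 and 9.07 CPM in the double knockdown against 51.5 and 55.8 CPM in the vector cells after UV, a log2 fold change of -2.51 (SE 0.10, adjusted p = 2.59e-08). PIP4K2B (chr17:38765689-38800126, minus strand) was at 11.4 and 12.5 CPM against 81.7 and 76.1 CPM, a log2 fold change of -2.68 (SE 0.11, adjusted p = 3e-08). Both targets were low in the double knockdown with no overlap between groups (64.2% of all genes tested had none with 2 libraries a group), and each was near its level in the single knockdown, where PIP4K2A was at 7.48 and 7.63 CPM and PIP4K2B at 14.5 and 14.99 CPM.

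The untargeted member of the family moved the other way. PIP4K2C (chr12:57591174-57603418, plus strand), which encodes the form with the weakest catalytic activity, was at 113 and 110 CPM in the double knockdown and at 56.5 and 56.9 CPM in the vector cells. It rose by a log2 fold change of 1.02 (SE 0.10, adjusted p = 2.41e-05). It was also above each single knockdown, by 0.58 on the log2 scale against PIP4K2A knockdown (70.6 and 87.2 CPM, adjusted p = 0.00134) and by 0.63 against PIP4K2B knockdown (71.9 and 68.8 CPM, adjusted p = 0.000578). With no UV it was at 102 and 108 CPM in double-knockdown cells and at 56.9 CPM in the vector library used.

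**Figure D1:**
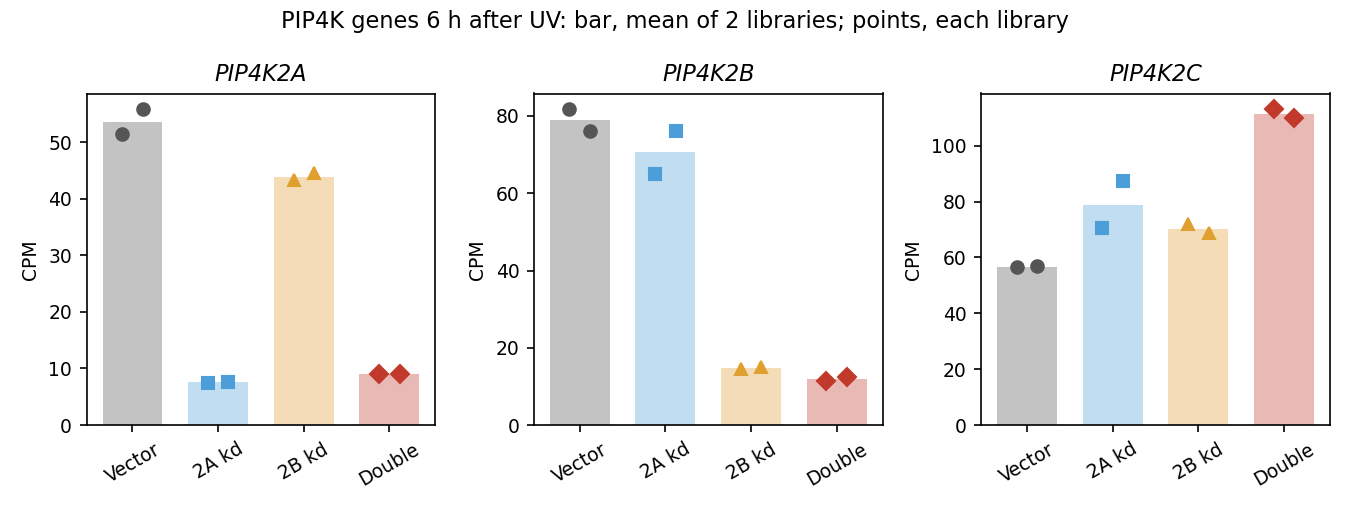
CPM of the 3 PIP4K genes (vertical axes, each from 0) in the 4 genotypes 6 h after UV, with bars for the mean of 2 libraries and points for each library. PIP4K2A and PIP4K2B are low wherever their hairpin was present, and PIP4K2C is highest in the 2 double-knockdown libraries, at 113 and 110 CPM.

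None of the 5 other kinases in the list that make or use these lipids passed the test. PIP5K1A, which makes phosphatidylinositol 4,5-bisphosphate from the 4-phosphate, was at 101 and 103 CPM against 109 and 101 CPM. PIKFYVE, the main source of phosphatidylinositol 5-phosphate, was at 55.2 and 52.1 CPM against 55.8 and 46.7 CPM.

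Across the transcriptome 22597 genes were tested, with 1 term per group in edgeR's quasi-likelihood test and Benjamini-Hochberg adjusted p under 0.05 as a call. In the double knockdown 1921 genes (8.5% of those tested) were higher and 1550 (6.86%) were lower than in vector cells after UV. At an unadjusted p under 0.05 there were 6502. Most changes were modest: the median log2 fold change was 0.59 over the genes that rose and -0.69 over those that fell, and 383 and 464 of them changed over 2-fold. Of the genes that rose 92.3% were protein-coding, and of those that fell 76.8%, against 67.8% of all genes tested. Counted as 1 sample, the double-knockdown pair gave 856 higher and 500 lower. Without any single library of the 4 the counts were 898 to 1013 higher and 567 to 825 lower, in each case with the first value from leaving out double-knockdown replicate 2 and the last from leaving out vector replicate 2. Scaling to ribosomal protein genes moved the median of all genes from 0.00 to 0.12 on the log2 scale and the split of the calls from 55.3% to 78.0% higher (2722 higher and 768 lower). Changes below are relative to the main scaling.

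Genes with clone or number-based names and pseudogenes were not ranked among the largest rises and falls. The largest rise among the ranked genes at 5 CPM or more was in MAGEA10 (chrX:152133310-152138578, minus strand), a cancer-testis antigen gene that is normally silent outside the germ line. It was at 33.3 and 31.9 CPM in the double knockdown and at 0.727 and 0.853 CPM in vector cells, a log2 fold change of 5.42 (SE 0.16, adjusted p = 3.22e-09). Neither single knockdown came near the double: MAGEA10 was at 1.07 and 0.937 CPM with PIP4K2A knocked down and at 1.22 and 1.03 CPM with PIP4K2B knocked down. With no UV the gene was nearly as high, at 28.2 and 27.8 CPM in double-knockdown cells against 0.699 CPM in the vector library of the fit. MAGEA genes are near-identical copies of each other, so the count of this one is less certain than that of a single-copy gene.

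Other large rises were in genes of varied function. STRA6, the membrane receptor for retinol-binding protein (chr15:74179466-74212267, minus strand), was at 76.3 and 76.8 CPM against 7.88 and 11.02 CPM (log2 fold change 3.07, SE 0.16, adjusted p = 2.91e-07). JUP, which encodes plakoglobin of desmosomes and adherens junctions, was at 86.0 and 84.5 CPM against 19.7 and 21.3 CPM (2.10, SE 0.12, adjusted p = 5.02e-07). SCEL, which encodes sciellin of the cornified envelope, was at 12.3 and 11.3 CPM against 1.40 and 1.01 CPM (3.32, SE 0.23, adjusted p = 2.26e-06). All 3 had intermediate levels in both single knockdowns; JUP for example was at 48.9 and 38.8 CPM with PIP4K2A and at 35.9 and 32.5 CPM with PIP4K2B knocked down.

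VAMP8, a SNARE protein of late endosomes and of autophagosome fusion, rose from 0.828 and 1.45 CPM in vector cells to 12.3 and 13.7 CPM (log2 fold change 3.58, SE 0.24, adjusted p = 2.26e-06). FBXO2, an F-box protein that recognises glycoproteins, rose from 1.66 and 2.31 CPM to 16.8 and 17.1 CPM (3.15, SE 0.23, adjusted p = 3.81e-06). RAC2, a gene best known in blood cells, rose from 12.01 and 13.4 CPM to 49.8 and 51.3 CPM (2.04, SE 0.17, adjusted p = 1.1e-05).

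In other large rises the single knockdowns did not both lie between vector and double knockdown. MOB3B, a member of the MOB family of kinase co-activators, was at 189 CPM in both double-knockdown libraries against 32.8 and 31.9 CPM in vector cells (2.59, SE 0.10, adjusted p = 1.8e-08), but at 19.4 and 20.6 CPM in PIP4K2B knockdown. ADD2, which encodes beta-adducin of the membrane skeleton, was at 36.5 and 33.6 CPM against 5.74 and 5.08 CPM (2.74, SE 0.17, adjusted p = 1.18e-06), with 23.6 and 18.5 CPM in PIP4K2A knockdown and 2.14 and 3.19 CPM in PIP4K2B knockdown. NLRP2, an NLR-family gene, had the same order of the 4 groups: 19.6 and 17.9 CPM in the double knockdown, 9.78 and 9.73 with PIP4K2A knocked down, 4.06 and 4.42 in vector cells and 0.528 and 0.689 with PIP4K2B knocked down. The pregnancy-specific glycoprotein genes PSG4 (3.14) and PSG5 (2.83), the sulfotransferase gene SULT1A1 (2.18), PCDHGB4 of the gamma-protocadherin cluster (2.10) and SYTL1, a Rab27 effector (2.16), completed the 15 largest rises. PSG, SULT1A and protocadherin genes have near-identical relatives or shared exons, so their counts are uncertain.

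Among the ranked genes with a mean of at least 5 CPM, CSTA had the largest fall apart from the 2 targets. CSTA encodes the cysteine protease inhibitor cystatin A, and was at 1.43 and 1.40 CPM against 8.88 and 8.94 CPM (log2 fold change -2.60, SE 0.17, adjusted p = 1.64e-06). SERPINF1, which encodes the secreted anti-angiogenic factor PEDF, was at 2.97 and 2.31 CPM against 15.3 and 15.2 CPM (-2.48, SE 0.18, adjusted p = 3.62e-06). DHRS2, a short-chain dehydrogenase gene, was at 152 and 156 CPM against 580 and 584 CPM (-1.87, SE 0.19, adjusted p = 5.28e-05). The genes were chosen for having no overlap between the groups.

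STARD7, which carries phosphatidylcholine to mitochondria, followed the PIP4K2A hairpin. It was at 69.8 and 72.2 CPM in the double knockdown and at 51.1 and 71.2 CPM in PIP4K2A knockdown, against 283 and 271 CPM in vector cells and 290 and 296 CPM in PIP4K2B knockdown. The fall in the double knockdown was -1.92 on the log2 scale (SE 0.12, adjusted p = 1.62e-06). Which hairpin sequences were used is not given in the sources used here, and whether the fall came from the loss of PIP4K2A or from the hairpin itself was not tested.

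Signalling genes were among the other large falls. NOTCH3, a Notch receptor, was at 40.03 and 40.6 CPM against 126 and 130 CPM (log2 fold change -1.62, SE 0.12, adjusted p = 3.81e-06). SMAD5, which carries BMP signals to the nucleus, was at 19.6 and 17.96 CPM against 61.1 and 54.2 CPM (-1.57, SE 0.13, adjusted p = 8.12e-06). ANK2, an ankyrin adaptor of the membrane skeleton, was at 12.1 and 12.03 CPM against 42.7 and 43.4 CPM (-1.79, SE 0.09, adjusted p = 1.83e-07). KIF1A, an axonal kinesin motor (-1.69), SYT2, a calcium sensor of exocytosis (-2.12), JPH4, a junctophilin (-1.59), ITGB2, the beta chain of leukocyte integrins (-1.80), GPSM3, a G-protein modulator (-1.53), and CT45A1, a cancer-testis antigen gene in a cluster of near-identical copies (-2.02), made up the rest of the 15.

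**Figure D2:**
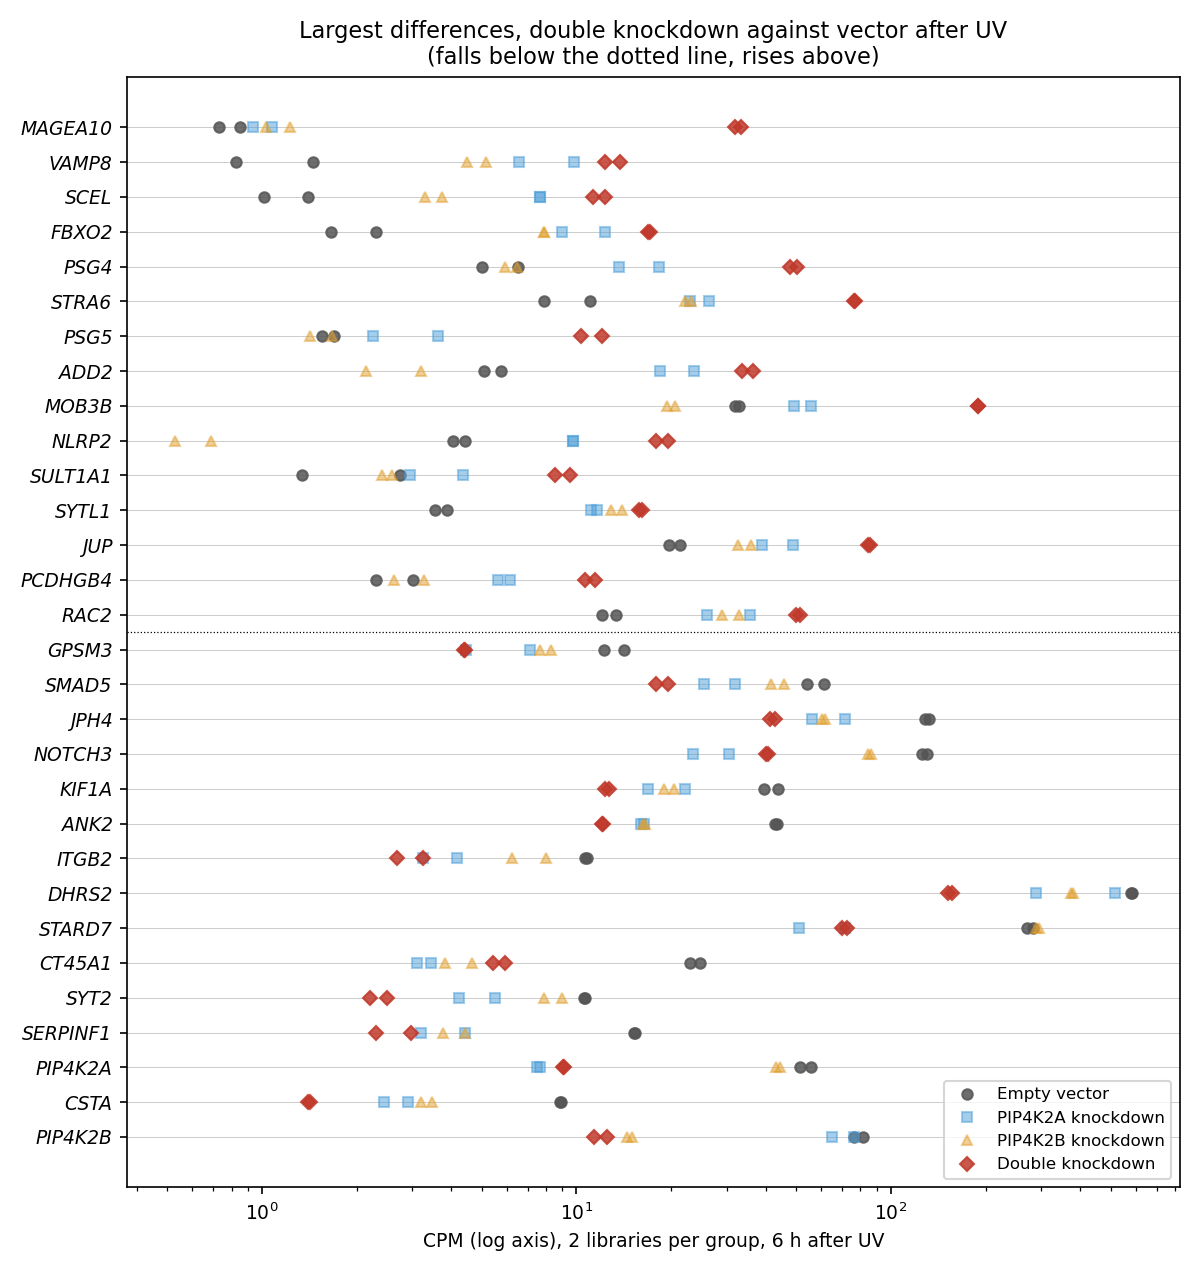
CPM on a log axis of the 15 genes with the largest falls and the 15 with the largest rises, with both libraries of each of the 4 genotypes after UV. The 2 double-knockdown points lie nearly on top of each other in most rows, and at least 1 single-knockdown library lies outside the range of the vector and double-knockdown libraries for PIP4K2A, CT45A1, STARD7, NOTCH3, NLRP2, MOB3B, ADD2 and PSG5.

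All 30 of these genes were also called, in the same direction, between double-knockdown and vector cells with no UV, and all 30 were called with the double-knockdown pair counted as 1 sample. With all 16 libraries in the fit 15 of the 30 were called.

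The same held more widely, in libraries that share none of the 4 above. Of the 1921 genes that rose after UV, 1850 had a positive log2 fold change with no UV, and of the 1550 that fell, 1441 had a negative one. That is 94.8% with the same sign, against 68.7% of all genes tested. In the untreated comparison, where 6.2% of genes were called, 643 and 508 of them were called in the same direction, 0 of the risen and 1 of the fallen in the opposite one. Their median log2 fold change with no UV was 0.43 and -0.46, against 0.59 and -0.69 after UV. The genes were selected on their values after UV, which by itself tends to make the medians after UV the larger ones. The 2 sets of medians therefore cannot show a stronger effect after UV. The untreated side had 2 double-knockdown libraries and 1 vector library.

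**Figure D3:**
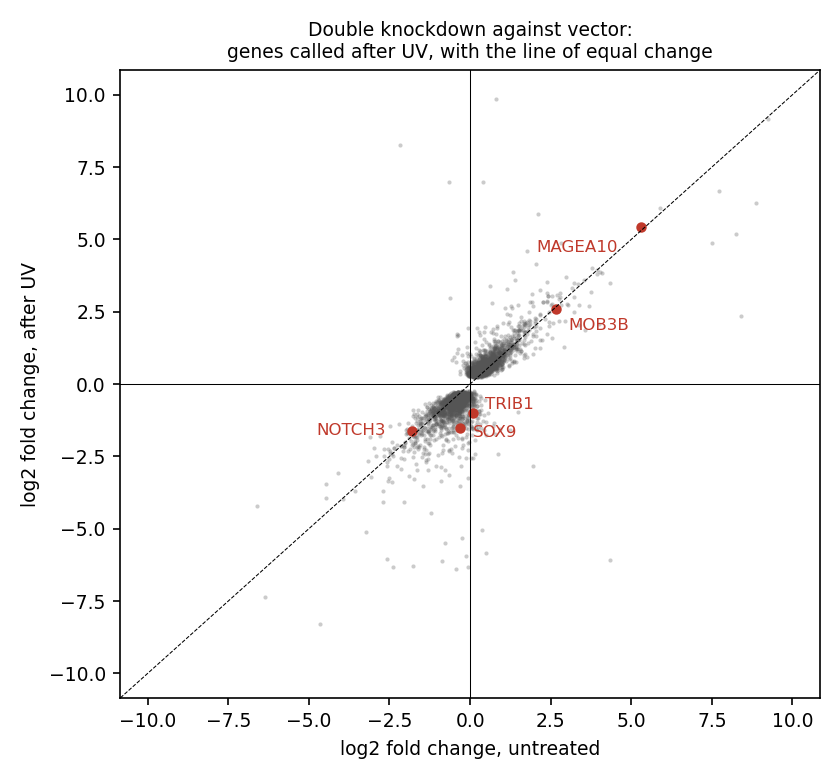
Log2 fold change of double knockdown against vector with no UV (horizontal axis) and after UV (vertical axis) for the 3471 genes called after UV, 1 point per gene. Most points lie near the dashed line of equal change, including MAGEA10, MOB3B and NOTCH3, while SOX9 and TRIB1 lie below it near a horizontal value of 0.

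Testing whether the effect of the double knockdown differed between UV and no UV gave 2 calls of 22597 (0.00885%), both lower, and 0 higher. At an unadjusted p under 0.05 there were 1209 genes (5.35%), and DESeq2 called 5 higher and 15 lower. SOX9 (chr17:72121020-72126420, plus strand), a transcription factor of cartilage and progenitor cells, was at 49.3 and 52.3 CPM in double-knockdown and 160 and 143 CPM in vector cells after UV, but at 178 and 190 CPM against 224 CPM with no UV. The fall after UV exceeded that with no UV by 1.22 on the log2 scale (log2 difference -1.22, SE 0.14, adjusted p = 0.0185). Low SOX9 after UV was also seen with PIP4K2B knocked down (75.0 and 79.8 CPM) and not with PIP4K2A knocked down (148 and 139 CPM).

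TRIB1, a pseudokinase that brings C/EBP proteins to a ubiquitin ligase, was at 12.1 and 12.9 CPM against 25.0 and 26.6 CPM after UV and at 27.1 and 27.3 CPM against 25.1 CPM with no UV. Its log2 difference was -1.09 (SE 0.14, adjusted p = 0.0469). Both calls rest on a single untreated vector library. With the double-knockdown UV pair as 1 sample neither was called (adjusted p 0.182 for SOX9 and 0.229 for TRIB1), nor was either without any single one of the other 6 libraries in the test. The adjusted p for TRIB1 was then 0.13 to 0.378. For SOX9 the adjusted p was 0.254 without double-knockdown UV replicate 1, 0.0659 without replicate 2, 0.139 without vector UV replicate 1, 0.059 without vector UV replicate 2, and 0.0771 and 0.171 without untreated double-knockdown replicate 1 and 2. The simple difference after UV did not lose its call in any of the 4 leave-one-out fits for either gene, with a log2 fold change of -1.53 for SOX9 (SE 0.09) and -1.0 for TRIB1 (SE 0.09).

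To read the response by function, 39 gene lists were counted against a background in which 15.4% of all genes tested were called. That background holds many weakly expressed genes, with a median of 4.95 CPM. Among protein-coding genes with a mean of at least 5 CPM the share called was larger. Of 10595 such genes 1488 rose (14.04%, against 8.5% of all genes tested) and 872 fell. Lists of well-expressed genes should be read against those counts, and a list near them does not stand out. The p53 target list stood highest. Of 33 tested p53 targets 15 rose and 3 fell, and the list's median log2 fold change was 0.41 against 0.00 over all genes tested. CDKN1A, which encodes the cell-cycle inhibitor p21, was at 296 and 294 CPM in the double knockdown and at 181 and 177 CPM in vector cells (0.77, SE 0.09, adjusted p = 0.00017). ZMAT3, a p53-induced RNA-binding protein, was at 106 and 110 CPM against 69.4 and 56.4 CPM (0.83, SE 0.10, adjusted p = 0.000177). PHLDA3, an inhibitor of AKT at the membrane, was at 84.0 CPM in both libraries against 60.6 and 59.3 CPM (0.53, SE 0.08, adjusted p = 0.000933). FBXO22, an F-box gene on chromosome 15, was at 59.9 and 61.2 CPM against 36.1 and 33.8 CPM (0.84, SE 0.09, adjusted p = 5.16e-05).

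Among the members that fell were TNFRSF10B, the death receptor for TRAIL (-0.49), and PHLDA1 (-0.40). PHLDA1 lost its call without any single library of the 4, with an adjusted p of 0.0732 to 0.282. The count for the p53 list was 8 higher and 1 lower with the double-knockdown pair as 1 sample, and 8 to 10 higher without any single library of the 4. With no UV the list's median was 0.19; CDKN1A was then at 286 and 299 CPM against 203 CPM.

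Genes of the BCL2 family gave 4 rises and 0 falls of 16, all of them genes that promote cell death. HRK was at 4.74 and 5.17 CPM against 2.06 and 1.55 CPM (log2 fold change 1.5, SE 0.19, adjusted p = 0.000246). BAK1, an effector that permeabilises mitochondria, was at 33.5 and 35.2 CPM against 21.1 and 20.5 CPM (0.77, SE 0.13, adjusted p = 0.0014). BIK (2.24) and BMF (1.36) were the other two, both at under 1.5 CPM in every one of the 4 libraries. The 4 rises were counted with the pair as 1 sample and without each library in turn as well.

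Immediate early genes, which are transcribed within minutes of a mitogen or stress signal, went the other way. Of 30 tested 9 fell and 1 rose, with a median of -0.24. EGR1, a zinc-finger factor, was at 67.0 and 66.9 CPM against 129 and 136 CPM (log2 fold change -0.94, SE 0.16, adjusted p = 0.00158). ARC was at 149 and 157 CPM against 290 and 296 CPM (-0.89, SE 0.17, adjusted p = 0.00341). FOSB, a subunit of AP-1, was at 5.89 and 4.99 CPM against 13.1 and 12.3 CPM (-1.18, SE 0.20, adjusted p = 0.00206). In the 3 untreated libraries of the fit all 3 genes were below their levels after UV (ARC at 23.6 to 30.2 CPM). Their difference between the lines with no UV did not pass, but that side held 1 vector library. The direct edgeR test of a different effect between UV and no UV called none of these 3 genes, so a dependence on UV is not shown for them.

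KLF2, a Krüppel-like factor, was at 3.25 and 2.80 CPM against 7.62 and 8.81 CPM (-1.39, SE 0.19, adjusted p = 0.000368) and was called with no UV too (-1.55). ATF3, a stress-induced partner of AP-1, was the 1 gene of the list that rose (0.50, adjusted p = 0.00526). Its adjusted p was 0.0739 without double-knockdown UV replicate 2 and 0.0584 without vector UV replicate 1. The list gave 6 falls with the pair as 1 sample and 5 or 6 without any single library, and 7 falls and 3 rises with ribosomal protein scaling.

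EGR1 is the textbook case of a promoter driven by serum response factor through CArG boxes. Its 250 bases before the start are shown because they hold such boxes, in capitals, at chr5:138465229-138465478 (plus strand, GRCh38.p14, RefSeq):
EGR1: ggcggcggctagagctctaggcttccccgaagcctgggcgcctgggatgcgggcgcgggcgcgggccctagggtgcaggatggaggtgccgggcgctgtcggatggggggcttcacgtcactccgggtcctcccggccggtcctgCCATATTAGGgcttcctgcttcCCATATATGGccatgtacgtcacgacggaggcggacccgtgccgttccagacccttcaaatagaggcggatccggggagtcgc
The boxes begin 105 and 83 bases before the start. Promoter windows (250 bases before to 50 after the start, both strands searched) were found for 22 of the 30 genes. A CArG box lay in 1 of 7 that fell, in 0 of 1 that rose and in 1 of 14 that did not pass, against 1.285% of 27305 promoters. The absence of a match says only that the letters are not in that window.

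Other signalling lists with mostly falls were those of TGF-beta and BMP and of YAP and TEAD. Of 26 TGF-beta and BMP genes 9 fell and 2 rose (median -0.30). INHBA, which encodes the activin A subunit, was at 24.0 and 24.6 CPM against 52.6 and 48.4 CPM (log2 fold change -1.01, SE 0.09, adjusted p = 1.64e-05). NOG, which encodes the BMP antagonist noggin, was at 21.4 and 23.8 CPM against 59.0 and 56.9 CPM (-1.31, SE 0.13, adjusted p = 4.69e-05). FST, an antagonist of activin, was at 24.3 and 27.1 CPM against 39.5 and 40.6 CPM (-0.59, SE 0.09, adjusted p = 0.000846). The list thus holds falls in a ligand and in antagonists of ligands. TGFBI, an induced matrix protein, rose (0.67, SE 0.09, adjusted p = 0.000231), as did SMAD3 (0.46, SE 0.07). The falls numbered 3 with the pair as 1 sample, 3 or 4 without any single library, and 5 with ribosomal protein scaling, where 4 rose.

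Of 23 YAP and TEAD target genes 6 fell and 2 rose (median -0.19). CCN2, the connective tissue growth factor, was at 96.0 and 95.4 CPM against 216 and 229 CPM (-1.17, SE 0.08, adjusted p = 1.77e-06), and with no UV at 137 and 131 CPM against 186 CPM. CCN2 fell the most of the list. LATS2, a kinase that restrains YAP, rose from 27.7 and 29.1 CPM to 40.9 and 38.9 CPM (0.54, SE 0.09, adjusted p = 0.00151). CRIM1, the other that rose (0.34, adjusted p = 0.0106), lost its call without any single library (adjusted p 0.0611 to 0.0798). Falls numbered 3 with the pair as 1 sample and 3 or 4 without any single library.

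Notch, WNT and inflammatory genes gave smaller counts. Of 18 Notch genes 4 fell and 1 rose; beside NOTCH3, its ligand JAG1 was at 20.7 and 22.9 CPM against 36.0 and 33.0 CPM (log2 fold change -0.61, SE 0.09, adjusted p = 0.000749). Of 27 WNT genes 6 fell and 2 rose. TCF7L2, the nuclear partner of beta-catenin, was at 18.5 and 17.6 CPM against 35.6 and 32.3 CPM (-0.87, SE 0.12, adjusted p = 0.000398). RNF43, which removes Frizzled receptors, was at 7.96 and 5.08 CPM against 2.24 CPM in both vector libraries (1.59, SE 0.21, adjusted p = 0.000328). NF-kB and cytokine genes split into 3 higher and 3 lower of 26, with IL11 at 16.6 and 18.8 CPM against 39.3 and 36.8 CPM (-1.05, SE 0.18, adjusted p = 0.00214). With the pair as 1 sample the Notch list gave 3 falls and 0 rises and the WNT list 3 falls and 1 rise, and without any single library they gave 3 or 4 falls and 3 to 5 falls. The cytokine list then gave 1 to 3 rises and 2 or 3 falls.

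Lysosome and autophagy genes rose more often than they fell: 13 higher and 1 lower of 43, with a median of 0.21. TFEB, a master regulator of lysosomal genes, was at 4.52 and 4.58 CPM against 2.18 and 2.05 CPM (log2 fold change 1.15, SE 0.18, adjusted p = 0.00109). MITF, its relative, was at 16.98 and 17.6 CPM against 10.6 and 10.2 CPM (0.78, SE 0.10, adjusted p = 0.000246). GABARAPL1, an ATG8-family protein of autophagosomes, was at 22.7 and 22.1 CPM against 12.3 and 11.9 CPM (0.93, SE 0.12, adjusted p = 0.000228). ATP6V0E1, a subunit of the proton pump, was at 71.0 and 72.2 CPM against 45.3 and 38.9 CPM (0.81, SE 0.09, adjusted p = 8.92e-05). NPC1, the lysosomal cholesterol transporter, was the 1 that fell (-0.40, adjusted p = 0.00623), and its adjusted p was 0.0543, 0.0678 and 0.0595 without double-knockdown UV replicate 1, replicate 2 and vector UV replicate 2. The rises numbered 8 with the pair as 1 sample and 8 to 10 without any single library.

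Of 34 AKT and mTORC1 pathway genes 10 rose and 1 fell, and several that rose restrain the pathway. PHLPP2, a phosphatase of AKT, was at 45.6 and 43.5 CPM against 28.3 and 26.5 CPM (log2 fold change 0.75, SE 0.08, adjusted p = 7.83e-05). The sestrin genes SESN2 (29.1 and 27.9 CPM against 17.6 and 20.1 CPM) and SESN1 (7.56 and 8.16 CPM against 5.19 and 4.35 CPM) are stress-induced inhibitors of mTORC1 and also stand in the p53 list. CASTOR1, an arginine sensor that inhibits mTORC1, was at 5.96 and 5.92 CPM against 3.51 and 3.14 CPM (0.88, SE 0.17, adjusted p = 0.00385). EIF4EBP1, the translation repressor, fell (-0.73, adjusted p = 0.0278) but not without any single library (adjusted p 0.0892 to 0.146). The rises numbered 5 with the pair as 1 sample and 5 or 6 without any single library.

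Among 47 other phosphoinositide kinases and phosphatases 12 rose and 3 fell. INPP4B, which removes the 4-phosphate of phosphatidylinositol 3,4-bisphosphate, was at 60.9 and 59.0 CPM against 37.3 and 37.0 CPM (log2 fold change 0.74, SE 0.08, adjusted p = 5.76e-05). PIK3R3, a regulatory subunit of PI3K, was at 28.1 and 27.2 CPM against 18.9 and 18.2 CPM (0.63, SE 0.09, adjusted p = 0.000409). PIK3C2A, a class II PI3K of endocytosis, was at 271 and 269 CPM against 201 and 188 CPM (0.52, SE 0.10, adjusted p = 0.00456). With the pair as 1 sample 4 rose and 0 fell, and without any single library 3 to 5 rose and 0 fell. The 3 that fell in the full fit were PLCB4, PIK3CB and PI4KB.

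Matrix genes changed in both directions. Of 45 matrix, integrin and adhesion genes 11 rose and 5 fell. ITGB4, the integrin beta chain of hemidesmosomes, was at 29.3 and 28.1 CPM against 7.42 and 7.58 CPM (log2 fold change 1.98, SE 0.16, adjusted p = 7.23e-06). LAMA3, a laminin alpha chain gene, rose from 0.652 and 0.663 CPM to 2.63 and 2.71 CPM (2.07, SE 0.21, adjusted p = 4.35e-05). In PIP4K2A knockdown ITGB4 (42.9 and 31.0 CPM) and LAMA3 (15.4 and 14.7 CPM) were above the level of the double knockdown. The 5 falls were 1 or 2 with the pair as 1 sample or without any single library, and LAMA4 (-3.18), at 0.031 and 0.218 CPM in the double knockdown, was among those that held.

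Of 25 collagen genes 8 rose and 4 fell. COL8A1, a short-chain collagen of vessel walls, was at 88.7 and 91.9 CPM against 37.8 and 36.1 CPM (1.34, SE 0.09, adjusted p = 1.77e-06). COL4A4, a basement-membrane chain, was at 22.0 and 21.9 CPM against 8.08 and 7.67 CPM (1.53, SE 0.12, adjusted p = 5.44e-06). For both, the single knockdowns stayed near the vector cells: COL8A1 was at 37.5 and 36.2 CPM and at 28.4 and 31.5 CPM, and COL4A4 at 8.97 and 8.90 CPM and at 6.92 and 6.42 CPM. COL6A1, a chain of microfibrillar collagen VI, was at 111 and 109 CPM against 218 and 235 CPM (-0.99, SE 0.16, adjusted p = 0.00136). With the pair as 1 sample 5 rose and 2 fell, and without any single library 4 or 5 rose and 2 fell.

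Markers of cell type were read to check the line and what else moved. Of 8 osteoblast genes tested 1 rose and 2 fell, and 0 rose and 1 fell with the pair as 1 sample or without any single library of the 4. ALPL, alkaline phosphatase, rose (log2 fold change 0.93, SE 0.26, adjusted p = 0.029) and TNFRSF11B, a decoy receptor for RANKL, fell (-1.01, SE 0.15, adjusted p = 0.000655). RUNX2, the main osteoblast transcription factor, was at 24.3 and 24.2 CPM against 32.6 and 31.7 CPM (-0.36, SE 0.08, adjusted p = 0.011), with an adjusted p of 0.0617 to 0.0951 without any single library. COL1A1 was at 2507 and 2524 CPM against 2388 and 2351 CPM, while IBSP was at 0 in all 4 libraries and SP7 at 0.201 CPM or less. Blood and endothelial markers were nearly absent, with summed levels of 6.87 to 11.04 CPM and 8.79 to 10.3 CPM in the 4 libraries.

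Of the epithelial markers 5 of 13 tested rose (KRT8, CLDN1, CDH1, EPCAM and OCLN; 3 with the pair as 1 sample) and CLDN4 fell, and their summed level was 681 and 693 CPM against 386 and 379 CPM. KRT8, a keratin of simple epithelia, was at 415 and 426 CPM against 142 and 132 CPM (log2 fold change 1.67, SE 0.21, adjusted p = 0.000231) and carried most of that sum. CDH1, which encodes E-cadherin, was at 5.05 and 4.24 CPM against 2.28 and 2.34 CPM (1.05, SE 0.17, adjusted p = 0.00112). The fall of CLDN4 was of similar size (-1.09, adjusted p = 0.00027). KRT18, another keratin gene, was among the 7 that did not pass (0.195, adjusted p = 0.53). GRHL2, a driver of epithelial identity, was at 0 in all 4 libraries and KRT19 at 0.1 CPM or less. EPCAM and OCLN lost their call without double-knockdown UV replicate 2 (adjusted p 0.0523 and 0.133) or vector UV replicate 2 (0.0757 and 0.134), and OCLN also without the other replicate of each group (0.0773 and 0.0611).

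Of 16 mesenchymal genes 3 fell and 2 rose, and the counts were the same with the pair as 1 sample. ZEB1, a repressor of E-cadherin, was at 16.98 and 17.6 CPM against 50.9 and 49.96 CPM (-1.5, SE 0.08, adjusted p = 4.51e-07), and with no UV at 40.5 and 37.3 CPM against 68.0 CPM. CDH2, which encodes N-cadherin, was at 115 and 117 CPM against 172 and 174 CPM (-0.53, SE 0.09, adjusted p = 0.00154). The contractile genes CNN1 (1.52, SE 0.13) and TAGLN (1.24, SE 0.15) rose, and VIM was at 2466 and 2546 CPM against 3062 and 2842 CPM and did not pass. In bulk RNA a change in the share of cells with a program and a change per cell cannot be told apart.

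Metabolic and stress lists gave mixed counts. ATF4 and unfolded-protein genes split 6 higher and 6 lower of 25. ASNS, the asparagine synthetase that ATF4 induces, was at 91.5 and 92.2 CPM against 197 and 199 CPM (log2 fold change -1.06, SE 0.08, adjusted p = 5.71e-06), and with no UV at 78.6 and 69.7 CPM against 179 CPM. With the pair as 1 sample this list gave 1 higher and 2 lower, and without any single library 1 or 2 higher and 2 to 5 lower. Of 31 cholesterol and fatty acid synthesis genes 7 fell and 1 rose, but their median of -0.01 turned to 0.12 with ribosomal protein scaling, and 4 or 5 fell and 0 rose without any single library (4 and 0 with the pair as 1 sample). HMGCS1, the first committed enzyme of sterol synthesis, was at 59.3 and 57.9 CPM against 92.3 and 90.6 CPM (-0.60, SE 0.08, adjusted p = 0.000389).

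Splicing and repair lists were counted in the same way. Of 37 SR-protein and splicing regulator genes 3 rose and 3 fell, of 31 hnRNP genes 2 rose and 1 fell, and of 38 core spliceosome genes 3 rose and 1 fell. Without any single library these were 1 rise and 1 or 2 falls, 0 or 1 of each, and 0 or 1 rises and 1 fall. With the pair as 1 sample they were 1 rise and 2 falls, 0 of each, and 0 rises and 1 fall. PRPF4, a protein of the U4/U6 particle, was at 22.5 and 22.9 CPM against 34.4 and 34.0 CPM (-0.54, SE 0.08, adjusted p = 0.000596), and NOVA2, a neuronal splicing factor, at 46.7 and 48.7 CPM against 78.0 and 77.6 CPM (-0.66, SE 0.08, adjusted p = 0.00018). Of 35 genes in the nucleotide excision repair list, most of which act in removing UV photoproducts, 6 rose and 0 fell. POLH, a translesion polymerase gene, was among the 6. Fewer rose with the pair as 1 sample or without any single library. ERCC3, the XPB helicase of TFIIH, was at 71.0 CPM in both libraries against 55.0 and 54.0 CPM (0.43, SE 0.08, adjusted p = 0.00298). Of 79 ribosomal protein genes 8 fell and 0 rose, with fewer falls when the pair was 1 sample or any single library was left out. Their median was -0.08, and 0.05 with ribosomal protein scaling. That scaling sets the summed counts of these same genes equal in all libraries, so the second median cannot test whether they fell.

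**Figure D4:**
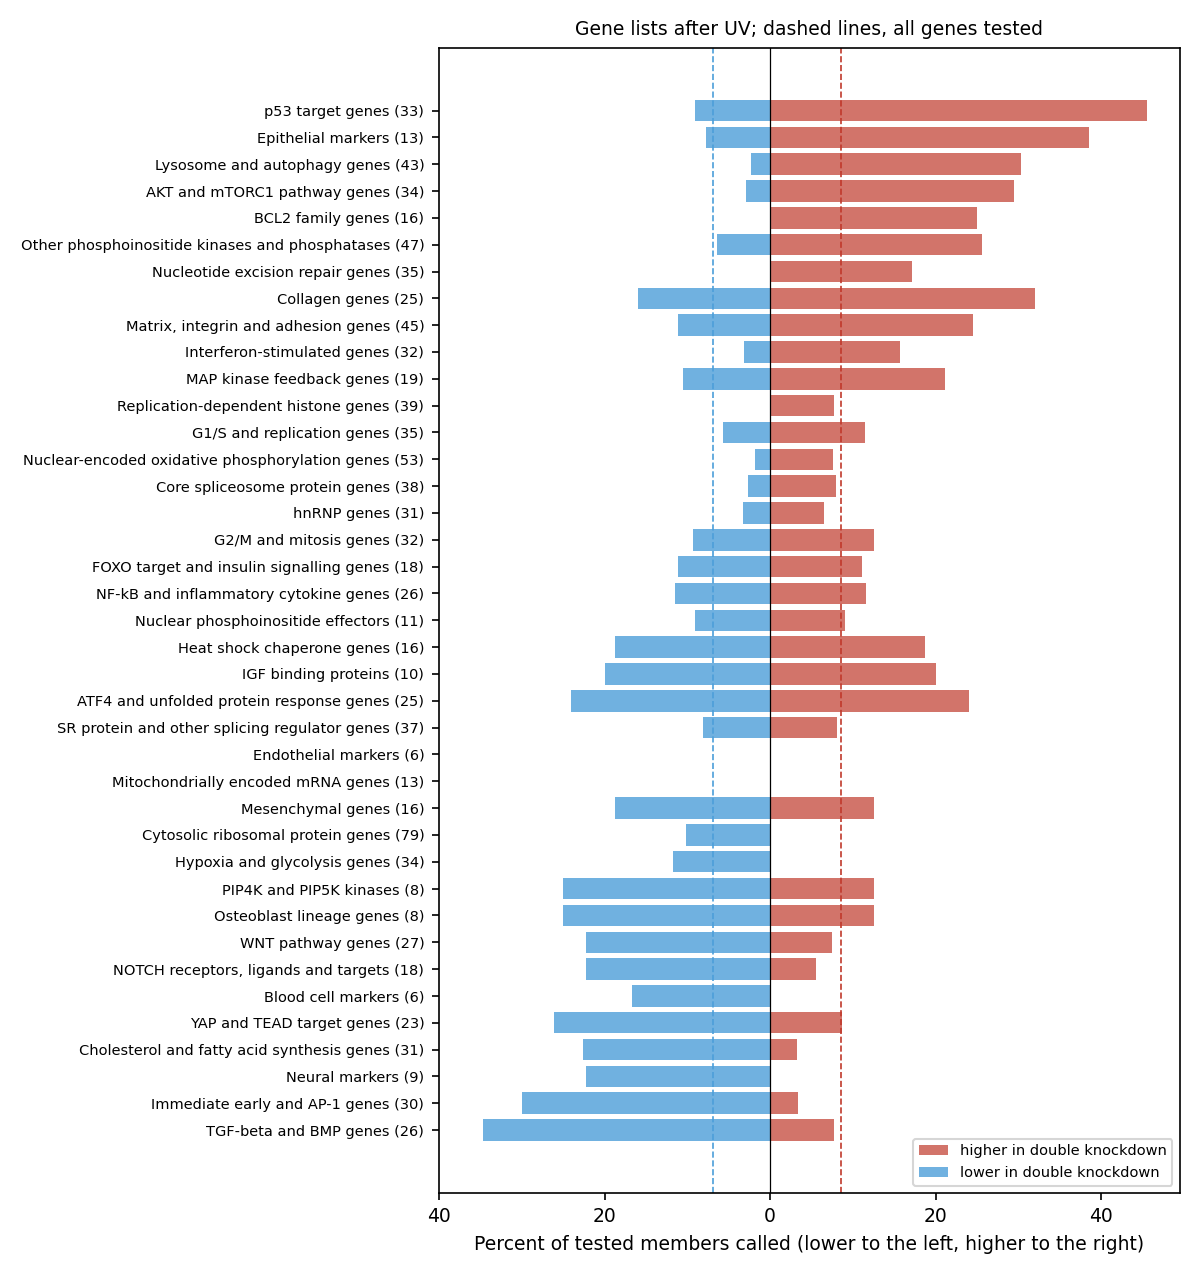
Percent of the tested members of each gene list that were called lower (bars to the left) and higher (bars to the right) in the double knockdown after UV, with the number of tested members in parentheses and dashed lines at the level of all genes tested. The p53 list reaches furthest to the right (15 of 33) and the TGF-beta and BMP list (9 of 26) furthest to the left.

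The series also bears on splicing, and the deposited tables give one indirect readout of it, the length of each gene averaged over its transcripts by their abundance. Of 11394 genes tested with limma 1 passed (0.00878%), PSPN, a neurotrophic factor gene, which was shorter by 0.36 on the log2 scale (log2 difference -0.36, SE 0.03, adjusted p = 0.0472). Its mean length was 2929 and 3178 bases in the double knockdown against 3911 bases in both vector libraries, on 132 to 196 counts. At an unadjusted p under 0.05 there were 534 genes (4.69%). PSPN was not called without vector UV replicate 1 or replicate 2, where 0 genes were shorter.

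Genes that changed together were not spread evenly over the genome, a pattern looked for after the calls were known. Among protein-coding genes with a mean of at least 5 CPM, 168 of the 347 on chromosome 15 rose (48.4%) and 7 fell, against 14.04% that rose of all 10595 such genes. The median log2 fold change on chromosome 15 was 0.39, against 0.06 over all chromosomes and at most 0.15 on any other. With no UV the chromosome 15 median was 0.33, in libraries that share none of these 4. The PIP4K2A knockdown (0.26) and the PIP4K2B knockdown (0.24) after UV, which share the vector libraries, had positive medians too.

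In windows of 20 Mb, 19 of 153 with at least 15 such genes had a median beyond 0.2 in either direction, 11 up and 8 down, and all 19 had the same sign with no UV. The first 20 Mb of chromosome 3 had a median of -0.38 over 67 genes, 32 of which fell and 1 of which rose. It was -0.39 with no UV, and 0.03 in each single knockdown after UV. The window from 140 to 160 Mb of chromosome 7 had a median of 0.38 over 55 genes, against -0.13 with PIP4K2A and -0.22 with PIP4K2B knocked down. These windows held 20.6% of the calls. Outside them 13.9% of genes were called, 1458 higher and 1297 lower, against 25.8% inside.

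Counts of some lists outside the windows were as follows. The p53 list gave 11 higher and 3 lower of 26, the immediate early list 1 and 9 of 29, the TGF-beta and BMP list 1 and 8 of 21, and the lysosome list 9 and 1 of 36. The hnRNP list went from 2 higher and 1 lower to 0 and 1 of 28, the G2/M and mitosis list from 4 and 3 to 1 and 3 of 25, and the collagen list from 8 and 4 to 7 and 2 of 21. The BCL2 list went from 4 higher and 0 lower to 3 and 0 of 13, and the lysosome list had 13 higher before the windows were set aside. STRA6 and FBXO22 lie on chromosome 15 and are inside. They are examples only: other genes named above, such as a BCL2 family gene that rose, are inside too. DNA copy number was not measured in these samples, and its part in the shifts was not tested.

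**Figure D5:**
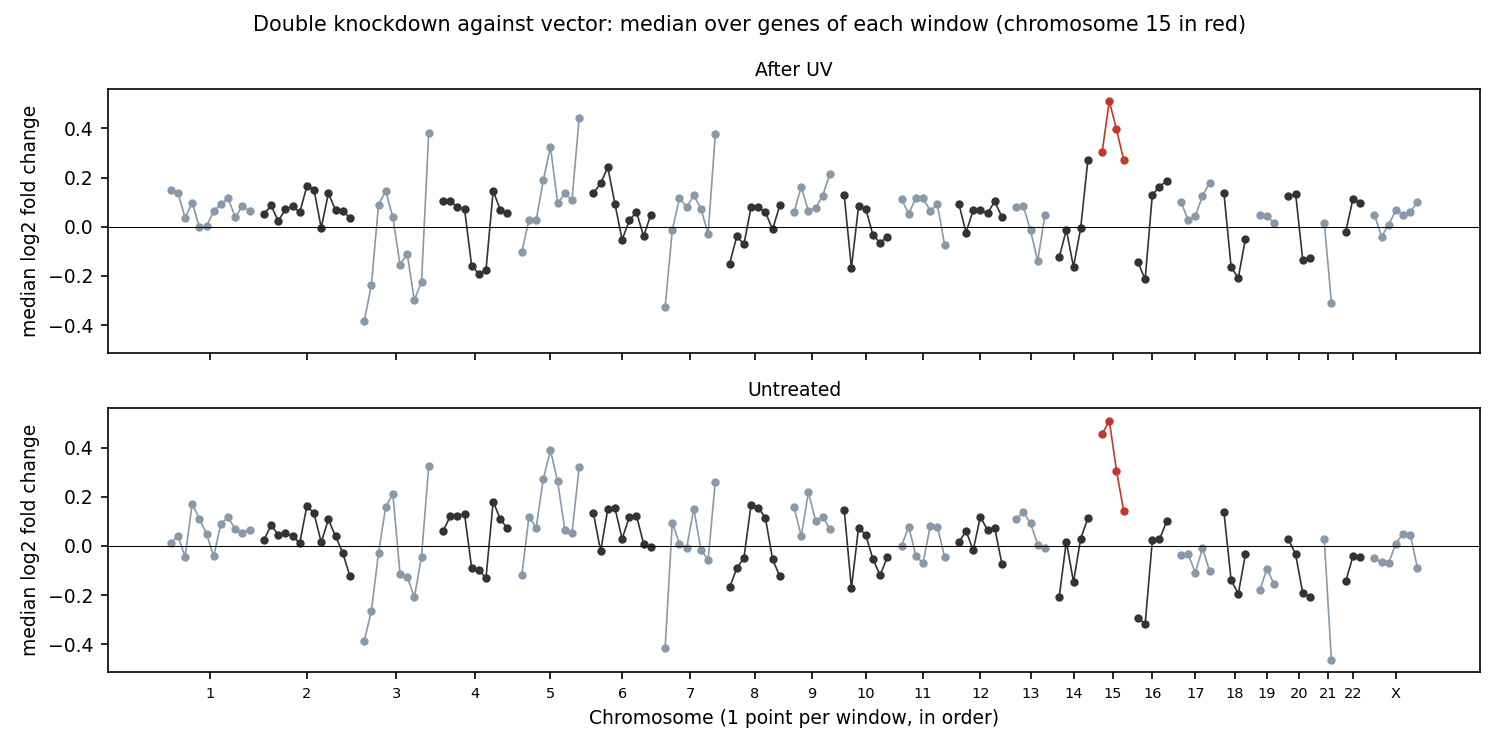
Median log2 fold change of double knockdown against vector over the protein-coding genes of each 20 Mb window, in order along the chromosomes, after UV (top) and with no UV (bottom). Chromosome 15, in red, is above 0 in all its windows in both panels, and the first window of chromosome 3 is at -0.38 after UV and -0.39 with no UV.

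The double knockdown was then compared with each single knockdown after UV. Against PIP4K2A knockdown 2217 genes (9.81%) were higher and 2195 (9.71%) lower. Against PIP4K2B knockdown 1953 (8.64%) were higher and 2053 (9.09%) lower. With the pair as 1 sample these were 1041 and 710, and 1053 and 965. Leaving out either double-knockdown library gave 1122 and 801 (replicate 1) and 1127 and 800 (replicate 2) against PIP4K2A knockdown, and 1111 and 1030 (replicate 1) and 1087 and 1019 (replicate 2) against PIP4K2B knockdown. Without PIP4K2B knockdown replicate 1 or replicate 2 the second comparison gave 1086 and 1073 or 1088 and 1178. The 2 PIP4K2A knockdown libraries differed widely from each other (chi-square of 106 per degree of freedom), as with DHRS2 at 516 and 289 CPM.

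Where the double knockdown departed from the sum of the 2 single effects on the log2 scale, 2302 genes (10.2%) lay above the sum and 2728 (12.1%) below. Counting the double-knockdown pair as 1 sample gave 1584 and 1703, and leaving out single libraries gave 1625 to 3504 and 1772 to 3917. The lowest values came without double-knockdown replicate 1 and the highest without PIP4K2A knockdown replicate 2. MAGEA10, at 4.50 above the sum, was the clearest case of a gene raised by the double knockdown with little change in either single one. In others the single knockdowns moved and the double did not. GALNT15, which encodes an enzyme of mucin-type glycosylation, was at 6.38 and 6.64 CPM in the double knockdown and 9.13 and 9.76 CPM in vector cells, but at 0.984 and 1.74 CPM and at 0.946 and 0.689 CPM in the single knockdowns (5.77 above the sum, SE 0.31, adjusted p = 1.23e-07). FOXS1, a forkhead factor, was at 17.4 and 16.6 CPM against 18.8 and 21.2 CPM, and at 3.56 to 3.88 CPM in all 4 single-knockdown libraries.

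The reverse was seen too. IGF2, a growth factor, was at 28.0 and 32.0 CPM in the double knockdown and 44.4 and 49.3 CPM in vector cells, but at 156 and 97.1 CPM with PIP4K2A and 102 and 105 CPM with PIP4K2B knocked down. LCP1, an actin-bundling protein, was at 11.7 and 11.6 CPM in the double knockdown and at 24.7 and 27.6 CPM and 16.3 and 15.7 CPM in the single ones, against 3.91 and 3.50 CPM in vector cells. ZFP30, a zinc-finger gene, was at 5.48 and 4.92 CPM in the double knockdown against 21.4 to 27.5 CPM in the 4 single-knockdown libraries. Each group is a stable line, and differences between lines that do not come from the hairpins cannot be told apart from the effect of the knockdown in these libraries.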

How the data were processed

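Libraries were directional and made from total RNA after rRNA removal, per the labels' protocols. STAR, SAMtools, RSEM and GRCh38 are listed in the submitters' processing notes; no source used here gives their versions, the annotation or how strand was treated, so overlapping and antisense genes are uncertain. The authors deposited, for each of the 16 libraries, expected counts per gene and the length of each gene in bases, weighted over its isoforms. Their TPM and FPKM were not used.

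Expected counts as deposited were rounded to whole numbers. Genes passing filterByExpr at a minimum count of 10 were tested with edgeR 4.0.16 in R 4.3.3 (TMM scaling, quasi-likelihood test, Benjamini-Hochberg adjustment, adjusted p under 0.05), with 1 term per group over 15 libraries. The untreated vector library with 1.28 M counts was left out from the start, since its depth was known from earlier results. CPM is a gene's count over the library total, without TMM. Length was tested with limma 3.58.1 where the mean count reached 100. DESeq2 1.42.0 was an alternative. The tests were checked on simulated data. Positions are from GENCODE and promoters from RefSeq.

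The genes and lists were chosen with earlier results of these data known. Named genes are the 3 PIP4K genes, the 15 largest rises and 15 largest falls among called genes with no overlap and a mean of at least 5 CPM, up to 6 in each direction for the difference between UV and no UV and for the departure from the sum of the single knockdowns, up to 5 in each direction for length, and up to 4 members of each list with the smallest adjusted p and a mean of at least 1 CPM (the 2 highest where none passed). Clone names, LINC, MIR and open-reading-frame names, symbols that are Ensembl IDs and pseudogenes were left out of the largest rises and falls, the difference between UV and no UV and the departure from the sum. The text gives some of the named genes. Named outside this rule, after their values were seen, were BIK, BMF, EPCAM, OCLN, ATF3, NPC1, EIF4EBP1, SMAD3, CRIM1, TNFRSF10B, PHLDA1, PLCB4, PIK3CB, PI4KB, LAMA4, PIP5K1A, PIKFYVE and the cell type markers that did not pass. Counting the double-knockdown UV pair as 1 sample and leaving out both PIP4K2A knockdown UV libraries were alternatives chosen after seeing the data. Some genes are not reported here.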

Additional observations from a re-analysis of the deposited data

Results flagged for a closer look

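Each value here is a log2 difference between 2 effects that edgeR's quasi-likelihood test called at an adjusted p under 0.05. For SOX9 (-1.22) and TRIB1 (-1.09) the effect of the double knockdown was called as different between UV and no UV. Both calls rest on a single untreated vector library. They were lost with the double-knockdown UV pair as 1 sample and on leaving out any other single library of the test.

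The departure of the double knockdown after UV from the sum of the single knockdowns is given for 12 genes. They are the 6 furthest in each direction among the called genes that were ranked and had a mean of at least 5 CPM. In all, 2302 genes were called above the sum and 2728 below it. Above the sum were GALNT15 (5.77), HTR2A (5.11), CDKN2B (5.01), FOXS1 (4.59), HEPH (4.53) and MAGEA10 (4.50). CDKN2B, the cell-cycle inhibitor p15, was at 11.9 CPM in both double-knockdown libraries, 4.69 and 5.62 CPM in vector cells, 7.72 and 7.39 CPM with PIP4K2A knocked down and 0.25 CPM in both libraries with PIP4K2B knocked down. HTR2A, a serotonin receptor gene, was at 7.93 and 8.16 CPM, and at 0.361 and 0.313 CPM with PIP4K2B knocked down.

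Below the sum were ZFP30 (-3.76), DCTN6 (-3.49), LCP1 (-3.27), IGF2 (-3.21), PCDH7 (-3.07) and NECTIN3-AS1 (-3.07). DCTN6, a dynactin subunit gene, was at 19.8 and 21.7 CPM in the double knockdown and 13.5 and 15.1 CPM in vector cells, against 40.02 to 65.4 CPM in the 4 single-knockdown libraries.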

How the results depend on the processing

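With all 16 libraries the main comparison gave 47 genes higher and 17 lower, the departures 71 and 95, double against PIP4K2A knockdown 16 and 15, against PIP4K2B knockdown 99 and 51, and the difference between UV and no UV 0 lower. With the double-knockdown UV pair as 1 sample these were 856 and 500, 1703 lower, 1041 and 710, 1053 and 965, and 0 lower. With only the 4 libraries the main counts were 3558 and 3234, and without both PIP4K2A knockdown UV libraries 2934 and 2428, with 3 higher and 11 lower for the difference between UV and no UV. That difference gave 5 and 15 with DESeq2 and 62 and 66 with no filter on low counts. Scaling to ribosomal protein genes gave 768 lower in the main comparison, 0 lower for the difference, 1263 higher against PIP4K2A knockdown and 1069 lower against PIP4K2B knockdown. Leaving out 1 library gave 898 to 1013 higher and 567 to 825 lower, departures of 1625 to 3504 and 1772 to 3917, 1122 to 3241 and 800 to 3191 against PIP4K2A knockdown, 1086 to 1111 and 1019 to 1178 against PIP4K2B knockdown, 0 to 1 lower for the difference, and 0 to 2 longer and 0 to 3 shorter genes. The length call was lost (0 shorter) with all 16 libraries and with a mean of at least 30 or 500 counts. The cause of these moves was not tested. No named gene reversed.

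Replicate numbers did not pair the samples: over 21 pairs the correlation of same-numbered deviations ran from -0.46 to 0.72. With the replicate block the main counts were 1795 and 1433, the difference between UV and no UV gave 0 lower (adjusted p 0.0686 for SOX9 and 0.0911 for TRIB1), and 0 genes were shorter.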
